A study of Homo sapiens with 6 samples.

Results

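The genes described here encode the machinery that carries proteins into mitochondria, the TOMM and TIMM genes and their partners. They are the rows of the deposited gene table named TOMM or TIMM with a number, together with PAM16, DNAJC19, GRPEL1, GRPEL2, SAMM50, MTX1, MTX2, CHCHD4, GFER, PMPCA and PMPCB. The table held 36 such genes among 60623 named rows, each symbol on a single row. Expression was compared between 3 libraries of cells given XYA1353, a 2-iminobenzimidazole compound that the series title describes as active against myeloma, and 3 control libraries. All 6 libraries are labelled as RPMI-8226, an established human multiple myeloma cell line, and as taken at 48 h. The labels used here give no dose, no vehicle and no separate cultures, so the p-values rest on the spread among these libraries alone, which could be technical.

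Nearly all mitochondrial proteins are made in the cytosol and have to be imported. The TOM complex of the outer membrane is the common gate, and behind it the TIM23 complex and its motor draw in proteins with a cleavable presequence, the TIM22 complex inserts carrier proteins, the SAM complex inserts barrel-shaped outer membrane proteins, and the MIA pathway traps small cysteine-rich proteins in the space between the membranes. Plasma cells, from which myeloma arises, are secretory cells, and their mitochondria depend on this supply as those of other cells do.

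Values are TPM, a length-scaled share of the transcripts in each library, so levels can be compared between genes, while the depth behind a value is unknown. In bulk RNA such as this, fewer cells of a type and less RNA per cell cannot be told apart. The libraries went against the label of their cell type in both groups. Of 12 plasma cell markers 11 had a mean under 1 TPM, and CD38, TNFRSF17, JCHAIN, IGLC2 and IGLC3 were listed at 0 in all 6 libraries. Of 12 erythroid markers all 12 had a mean of at least 10 TPM, with a summed level of 6315 to 15480 TPM in XYA1353 libraries and 10080 to 12589 TPM in control libraries. Of 5 T cell and 5 myeloid markers 4 each had a mean under 1 TPM. The share of TPM in mitochondrially encoded genes was 9.90% to 11.7% in XYA1353 libraries and 14.7% to 15.2% in control libraries, and that in ribosomal protein genes was 25.9% to 27.9% in XYA1353 libraries and 21.0% to 21.8% in control libraries. The part of these differences in the results below was not tested. A rescaling without ribosomal protein, mitochondrially encoded and globin genes was an alternative chosen after seeing the data. Under it 19 of 35 tested import genes fell and 2 rose, while over all genes tested 1953 fell and 2188 rose.

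Transcripts of the import machinery were mostly lower after XYA1353. Of the 36 genes 35 had a mean of at least 1 TPM and were tested, and 21 fell, 2 rose and 12 were not called. The call used limma on log2(TPM + 1) at an adjusted p under 0.05 over all genes tested, of which 31.4% were called, 16.0% as lower and 15.4% as higher. Among the 7842 genes with a mean of at least 10 TPM, a level that 34 of the import genes reached, 24.2% fell. The median log2 fold change, XYA1353 minus control, was -0.38 over the 35 genes and 0.02 over all 13392 genes tested. The XYA1353 libraries lay entirely below the control libraries for 25 of the 35 genes and entirely above them for 4, while over all genes tested each of these held for 23.8%. TOMM20L, a paralogue of the receptor gene TOMM20, was listed at 0 in every library.

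**Figure D1:**
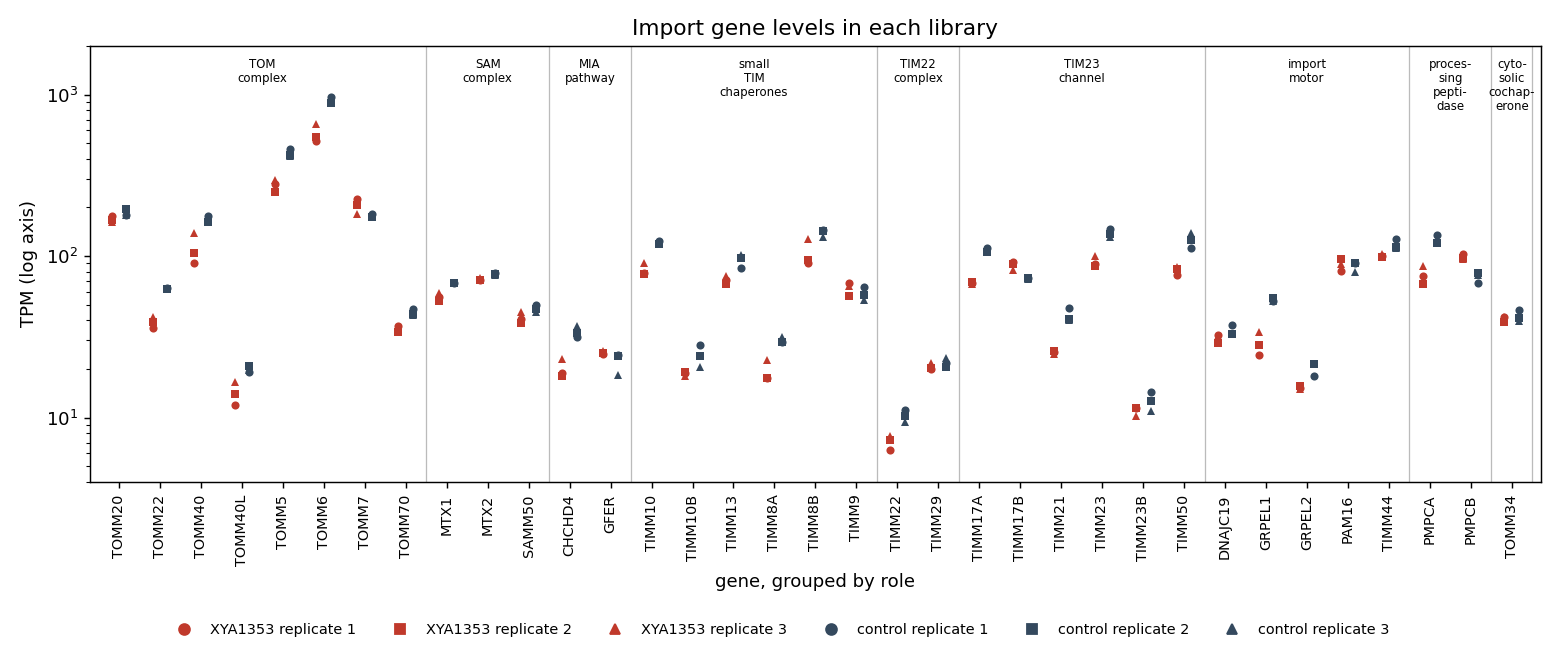
TPM on a log axis for the 35 tested import genes, grouped by role, with a point per library (XYA1353 left of control for each gene, marker shape giving the replicate number). Mean levels in XYA1353 libraries span from 7.11 TPM for TIMM22 to 574 TPM for TOMM6, and XYA1353 points lie below control points for most genes.

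**Figure D2:**
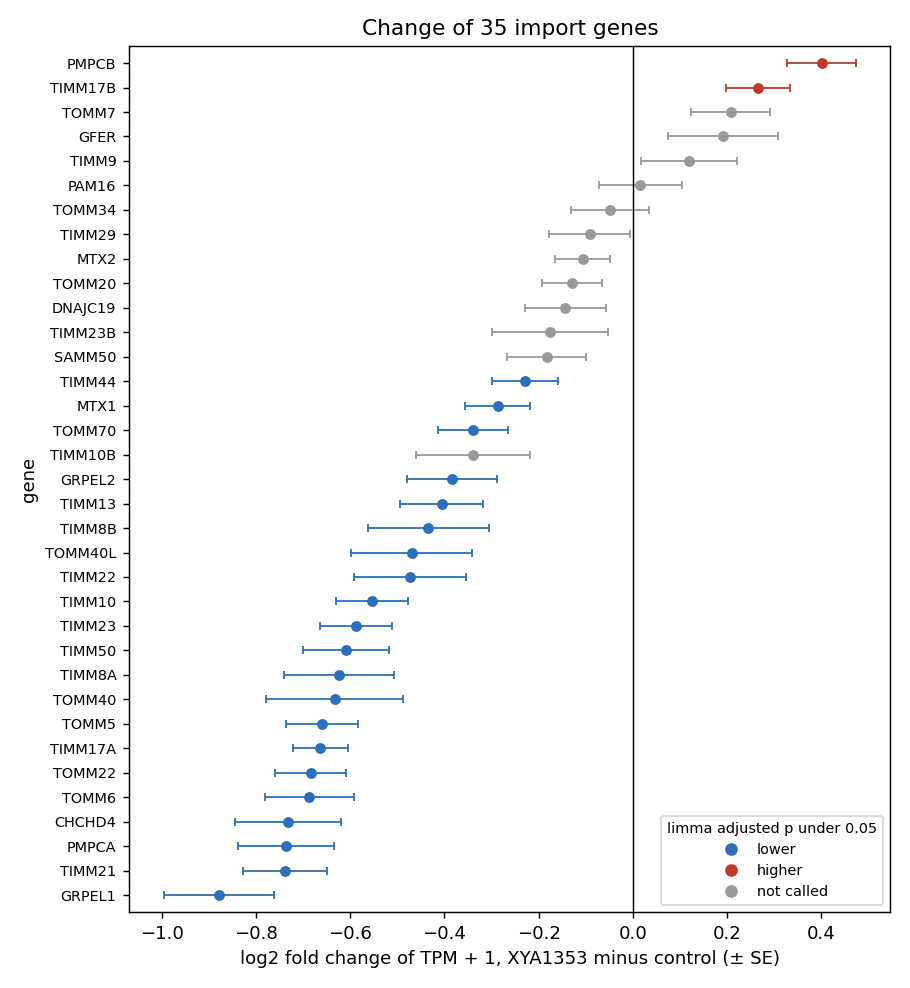
Log2 fold change of TPM + 1, XYA1353 minus control, with its standard error, for the 35 tested genes in order of change. The 21 genes called lower range to -0.88 for GRPEL1, and the 2 called higher are PMPCB at 0.40 and TIMM17B at 0.27.

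Promoters of 4 of these genes are shown because the genes responded differently: CHCHD4 and TIMM10 fell, PMPCB rose and TOMM20 was not called. Each is the RefSeq window on GRCh38.p14 with 250 bases before the annotated gene start and 50 from it, read 5′ to 3′ on the gene's strand. Capitals mark letters that match a motif of a factor known to act on genes for mitochondrial proteins or in stress: NRF1 (GCGC, any base, then TGCGC), the E-box bound by MYC (CACGTG), the ETS core bound by GABPA (CCGGAAG) or an ATF4 element (TGATGNAA), all searched on both strands.
CHCHD4, chr3:14124821-14125120, minus strand: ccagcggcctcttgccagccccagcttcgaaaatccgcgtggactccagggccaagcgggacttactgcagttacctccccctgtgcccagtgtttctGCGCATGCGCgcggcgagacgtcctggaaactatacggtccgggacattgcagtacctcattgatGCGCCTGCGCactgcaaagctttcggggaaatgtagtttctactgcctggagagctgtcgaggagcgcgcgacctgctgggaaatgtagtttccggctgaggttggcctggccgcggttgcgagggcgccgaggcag
TIMM10, chr11:57530705-57531004, minus strand: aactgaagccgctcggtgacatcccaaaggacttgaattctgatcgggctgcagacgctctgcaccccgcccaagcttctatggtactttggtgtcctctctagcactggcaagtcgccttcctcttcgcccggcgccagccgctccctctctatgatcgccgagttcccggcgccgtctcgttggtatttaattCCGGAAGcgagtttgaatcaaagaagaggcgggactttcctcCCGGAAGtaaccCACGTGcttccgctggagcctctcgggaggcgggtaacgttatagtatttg
PMPCB, chr7:103297185-103297484, plus strand: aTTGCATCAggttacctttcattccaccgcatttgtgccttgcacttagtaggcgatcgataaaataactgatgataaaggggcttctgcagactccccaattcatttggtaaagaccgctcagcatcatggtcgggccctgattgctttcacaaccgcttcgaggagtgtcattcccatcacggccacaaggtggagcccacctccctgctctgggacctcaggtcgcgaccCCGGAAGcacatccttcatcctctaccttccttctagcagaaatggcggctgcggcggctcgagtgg
TOMM20, chr1:235128788-235129087, minus strand: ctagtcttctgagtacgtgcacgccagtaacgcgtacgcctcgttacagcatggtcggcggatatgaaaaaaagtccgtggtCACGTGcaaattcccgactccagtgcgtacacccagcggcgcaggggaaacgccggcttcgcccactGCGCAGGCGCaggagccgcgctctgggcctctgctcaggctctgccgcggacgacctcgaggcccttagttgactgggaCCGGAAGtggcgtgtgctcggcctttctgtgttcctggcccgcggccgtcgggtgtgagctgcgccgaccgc
CHCHD4 holds a pair of NRF1 matches, TIMM10 a pair of ETS matches and an E-box, PMPCB an ATF4 and an ETS match, and TOMM20 an E-box, an NRF1 and an ETS match. Of 33 import genes with a promoter in the RefSeq table, 14 held an ETS match, 8 an NRF1 match, 3 an E-box and 2 an ATF4 match. Among promoters of genes tested, 21.4%, 12.9%, 10.7% and 1.45% held these motifs in that order, and among all 27305 promoters 10.7%, 6.28%, 7.43% and 3.67%. ETS matches stood in 7 of the 18 promoters of genes that fell and in 7 of the other 15, and NRF1 matches in 3 of the 18 and 5 of the 15. E-boxes stood in 2 of the 18 and 1 of the 15. The ATF4 matches were in 1 of the 18, TIMM22, which fell, and in 1 of the 15, PMPCB, which rose. TIMM17A, TIMM17B and PMPCA, the partner of PMPCB, all described below, held none of these motifs in the window. The 4 promoters shown, each with a match, therefore do not stand for all import genes. A match is a description and no evidence of binding, and GRPEL1, TIMM8B and TOMM5 were not in the table.

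In the outer membrane, the channel, the central receptor and a pair of small subunits of the TOM complex fell, while TOMM20 and TOMM7 were not called. Of 8 tested TOM genes 6 fell (75%) and 0 rose, with a median log2 fold change of -0.55. Over all genes tested 16.0% fell and 15.4% rose, and 24.2% fell among those averaging at least 10 TPM. TOMM22, the central receptor that organises the complex (ENSG00000100216, GRCh38 chromosome 22, 38681948 to 38685421, plus strand), stood at 35.7, 38.9 and 41.6 TPM in XYA1353 libraries 1, 2 and 3, against 63.2, 62.5 and 62.7 TPM in control libraries. The groups were far apart and the controls nearly equal (log2 fold change -0.68, SE 0.08, limma adjusted p = 0.00159). TOMM6, a small subunit and the most abundant of the 36 transcripts, stood at 518, 545 and 660 TPM after XYA1353, against 970, 882 and 913 TPM in control libraries (-0.69, SE 0.09, adjusted p = 0.0027). TOMM5, another small subunit, stood at 278, 251 and 296 TPM, against 461, 424 and 419 TPM in control libraries (-0.66, SE 0.08, adjusted p = 0.00177). Neither gene's groups overlapped, and both means were near 63% of control, at 62.3% for TOMM6 and 63.3% for TOMM5. TOMM6 shares 637 exonic bases with AL365205.1 on the same strand, which averaged 8.58 TPM in XYA1353 and 6.36 TPM in control libraries.

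TOMM7, the third small subunit, did not share this fall. It stood at 227, 207 and 183 TPM in XYA1353 libraries and at 181, 174 and 176 TPM in control libraries, without overlap but with replicate 3 close to the controls (log2 fold change 0.21, SE 0.08, adjusted p = 0.0992). TOMM7 was called higher without XYA1353 replicate 3 (adjusted p = 0.0153) and under quantile normalization (adjusted p = 0.026). The ratio of TOMM6 to TOMM7 TPM was 2.84 ± 0.689 in XYA1353 libraries and 5.20 ± 0.140 in control libraries (SD, n = 3 each), a pair chosen after its values were seen and therefore not tested. TOMM20, the presequence receptor whose promoter is shown above, averaged 168 ± 6.99 TPM after XYA1353 and 184 ± 9.72 TPM in controls (log2 fold change -0.13, SE 0.06, adjusted p = 0.167).

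The channel gene TOMM40 varied widely between XYA1353 libraries. It stood at 90.3, 105 and 139 TPM in XYA1353 libraries, against 176, 163 and 173 TPM in control libraries (-0.63, SE 0.15, adjusted p = 0.0159). All XYA1353 values lay below the controls, replicate 3 the nearest to them. The call was lost without XYA1353 replicate 2, control replicate 1 or control replicate 3 (adjusted p from 0.0592 to 0.0649) and with no filter on low values (adjusted p = 0.0543). Its paralogue TOMM40L averaged 14.2 ± 2.42 TPM in XYA1353 and 19.9 ± 0.903 TPM in control libraries (-0.47, adjusted p = 0.0289). That call was lost with no filter on low values (adjusted p = 0.0702) and in every fit that left out a library except that without XYA1353 replicate 3 (adjusted p 0.0687 to 0.0963). TOMM70, the receptor that takes carrier proteins from cytosolic chaperones, fell to 78.6% of control (-0.34, adjusted p = 0.0135), a call lost without XYA1353 replicate 2 (adjusted p = 0.0535). TOMM34, a cytosolic cochaperone that shares the TOMM name but is no subunit of the complex, averaged 41.1 ± 1.65 TPM in XYA1353 and 42.6 ± 3.48 TPM in control libraries, in overlapping groups (adjusted p = 0.69).

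Changes in the SAM complex were small. MTX1, a metaxin, stood at 55.7, 52.5 and 59.2 TPM in XYA1353 libraries and at 68.2 TPM in each control library (-0.29, SE 0.07, adjusted p = 0.0179). The MTX1 call was lost under quantile normalization (adjusted p = 0.0776), without XYA1353 replicate 2 and without any 1 control library (adjusted p from 0.054 to 0.0628). MTX1 shares 146 exonic bases with THBS3 on the opposite strand, which averaged 10.4 TPM in XYA1353 and 1.88 TPM in control libraries, and no source used here says if reads were counted by strand. MTX2, its partner, averaged 71.8 ± 1.41 TPM in XYA1353 and 77.3 ± 1.43 TPM in control libraries (adjusted p = 0.207). SAMM50, the barrel-inserting core subunit, averaged 41.4 ± 3.09 TPM in XYA1353 and 47.1 ± 2.61 TPM in control libraries (adjusted p = 0.136).

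In the MIA pathway the oxidoreductase gene fell and the gene of its oxidase was not called. CHCHD4 (ENSG00000163528, chromosome 3, 14112077 to 14124870, minus strand) forms disulphide bonds in arriving proteins, and its promoter is shown above. Its levels were 19.0, 18.2 and 23.0 TPM in XYA1353 libraries, against 31.6, 33.2 and 37.0 TPM in control libraries. The groups did not overlap and the mean was 59.2% of control (-0.73, SE 0.11, adjusted p = 0.00376). GFER, which reoxidises CHCHD4, stood at 24.9, 25.3 and 25.7 TPM after XYA1353 and at 24.3, 23.9 and 18.3 TPM in controls, where only control replicate 3 was far from the rest (adjusted p = 0.256). CHCHD4 was thus the less abundant of the pair in each XYA1353 library and the more abundant in each control library, with a TPM ratio of 0.793 ± 0.0924 in XYA1353 and 1.57 ± 0.393 in control libraries (SD, n = 3 each), chosen after its values were seen and not tested.

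The small TIM proteins work as paired hexamers that escort hydrophobic proteins across the space between the membranes, TIMM9 with TIMM10 and TIMM8A with TIMM13. Of 6 small TIM genes 4 fell (66.7%) and 0 rose, beside 16.0% lower and 15.4% higher over all genes tested. The levels of TIMM10 (ENSG00000134809, chromosome 11, 57528463 to 57530803, minus strand) were 78.6, 76.9 and 90.3 TPM in XYA1353 libraries, against 124, 118 and 119 TPM in control libraries (-0.55, SE 0.08, adjusted p = 0.00272). TIMM9, its partner, stood at 67.8, 56.2 and 65.7 TPM after XYA1353 and at 64.2, 57.1 and 53.1 TPM in controls, with overlap (0.12, SE 0.10, adjusted p = 0.41). The TPM ratio of TIMM10 to TIMM9 was 1.30 ± 0.123 in XYA1353 libraries and 2.08 ± 0.159 in control libraries (SD, n = 3 each), again chosen after its values were seen.

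Both members of the other hexamer fell. TIMM8A stood at 17.6, 17.6 and 22.8 TPM in XYA1353 libraries, against 29.4, 29.3 and 31.7 TPM in controls (-0.62, SE 0.12, adjusted p = 0.00742). TIMM13 averaged 70.9 ± 4.07 TPM in XYA1353 libraries and 94.4 ± 9.02 TPM in control libraries (-0.41, adjusted p = 0.0129), a call lost without XYA1353 replicate 2 (adjusted p = 0.0538) or control replicate 2 (adjusted p = 0.0506). It shares 257 exonic bases with LMNB2 on the same strand, at 64.9 TPM in XYA1353 and 89.7 TPM in control libraries. TIMM8B, the more abundant paralogue of TIMM8A, stood at 90.6, 94.8 and 127 TPM in XYA1353 libraries, against 144, 143 and 132 TPM in controls, with XYA1353 replicate 3 just under the controls (-0.43, SE 0.13, adjusted p = 0.0387). The TIMM8B call was lost in 5 of the 6 fits that left out a library (adjusted p from 0.0777 to 0.13) and in 6 other settings, the replicate block among them (adjusted p from 0.0553 to 0.105, and 0.0569 with the block). TIMM8B shares 351 exonic bases with NKAPD1 and 26 with SDHD on the opposite strand. TIMM10B, a small TIM protein bound to the TIM22 complex, averaged 18.8 ± 0.512 TPM in XYA1353 and 24.2 ± 3.89 TPM in control libraries (adjusted p = 0.0699, or 0.0377 without control replicate 3). TIMM22, the carrier insertase itself and the least abundant tested gene, stood at 6.33, 7.29 and 7.71 TPM in XYA1353 libraries, against 11.2, 10.2 and 9.42 TPM in controls (-0.47, SE 0.12, adjusted p = 0.022). That call was lost with no filter on low values (adjusted p = 0.0518) and in fits that left out XYA1353 replicate 1, XYA1353 replicate 2, control replicate 1 or control replicate 2 (adjusted p 0.0641 to 0.0762). TIMM22 shares 154 exonic bases with ABR on the opposite strand, at 6.61 TPM in XYA1353 and 3.82 TPM in control libraries. TIMM29, another TIM22 subunit, averaged 20.6 ± 0.927 TPM in XYA1353 and 22.0 ± 1.38 TPM in control libraries, in overlapping groups (adjusted p = 0.453).

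In the TIM23 complex of the inner membrane the channel, its receptor and the link to TOM fell, and the paralogues TIMM17A and TIMM17B moved in opposite directions. TIMM17A (ENSG00000134375, chromosome 1, 201955491 to 201970661, plus strand), a channel subunit known for rapid turnover of its protein under stress, stood at 68.2, 69.1 and 67.3 TPM in XYA1353 libraries, against 113, 107 and 107 TPM in control libraries. This change had the smallest standard error of the 21 that fell (-0.66, SE 0.06, adjusted p = 0.00123). TIMM17B (ENSG00000126768, chromosome X, 48893447 to 48898143, minus strand) takes the same place in another form of the channel. Its levels were 92.1, 89.8 and 81.5 TPM in XYA1353 libraries, against 73.0, 73.1 and 72.2 TPM in controls. All XYA1353 values lay above the controls (0.27, SE 0.07, adjusted p = 0.0235). The TIMM17B call was lost without a mean-variance trend (adjusted p = 0.0557) and in every fit that left out a library except that without XYA1353 replicate 3 (adjusted p 0.0596 to 0.081). TIMM17B shares 77 exonic bases with PQBP1 on the opposite strand, at 154 TPM in XYA1353 and 165 TPM in control libraries.

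TIMM23, the other channel subunit, stood at 89.5, 86.4 and 99.4 TPM after XYA1353, against 146, 138 and 131 TPM in controls (-0.59, SE 0.08, adjusted p = 0.00233). TIMM50, the receptor facing the space between the membranes, stood at 76.6, 83.7 and 85.0 TPM in XYA1353 libraries, against 112, 126 and 138 TPM in controls (-0.61, SE 0.09, adjusted p = 0.00341). TIMM21, which links TIM23 to TOM, stood at 25.4, 25.7 and 24.6 TPM in XYA1353 libraries, against 47.9, 40.7 and 40.0 TPM in controls (-0.74, SE 0.09, adjusted p = 0.00196). No group overlapped with the other for these 3 genes. TIMM23B, a near-identical copy of TIMM23 whose reads may be shared with it, averaged 11.0 ± 0.713 TPM in XYA1353 and 12.6 ± 1.77 TPM in control libraries, in overlapping groups (adjusted p = 0.317), so its split from TIMM23 is uncertain. TIMM23B also shares 131 exonic bases on the same strand with TIMM23B-AGAP6, which averaged 12.7 TPM in XYA1353 and 15.2 TPM in control libraries.

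In the import motor the nucleotide exchange factors fell and the J-domain subunits were not called. GRPEL1 (ENSG00000109519, chromosome 4, 7058906 to 7068197, minus strand), which recharges the motor's HSP70, showed the largest change of the 35 tested genes. It had 24.4, 28.3 and 33.9 TPM in XYA1353 libraries, against 52.7, 54.7 and 52.9 TPM in control libraries. The groups were well apart, with a mean of 54.0% of control (-0.88, SE 0.12, adjusted p = 0.00245). GRPEL2, its paralogue, averaged 15.3 ± 0.38 TPM in XYA1353 and 20.3 ± 1.88 TPM in control libraries (-0.38, adjusted p = 0.0213). That call was lost in fits that left out XYA1353 replicate 1, XYA1353 replicate 2, control replicate 2 or control replicate 3 (adjusted p 0.057 to 0.0817). TIMM44, which tethers the motor to the channel, stood at 99.6, 99.1 and 104 TPM in XYA1353 libraries, against 128, 114 and 112 TPM in controls (-0.23, SE 0.07, adjusted p = 0.0434). This weakest of the 21 calls was lost in 5 of the 6 fits without a library (adjusted p from 0.0614 to 0.123) and in 6 other settings, the replicate block among them (adjusted p from 0.0605, with the block, to 0.268). DNAJC19, the J protein, averaged 31.0 ± 1.80 TPM in XYA1353 and 34.4 ± 2.59 TPM in control libraries (adjusted p = 0.251). PAM16, its J-like partner, averaged 88.4 ± 7.67 TPM in XYA1353 and 87.4 ± 6.23 TPM in control libraries (adjusted p = 0.908). HSPA9, the motor's HSP70, is outside the 36 genes and was picked with its values known. It stood at 389, 345 and 320 TPM after XYA1353 and at 376, 347 and 328 TPM in controls, in overlapping groups (log2 fold change 0.00, SE 0.09, adjusted p = 0.991).

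The subunits of the peptidase that removes presequences in the matrix also moved in opposite directions. PMPCA, the subunit that recognises substrates (ENSG00000165688, chromosome 9, 136410570 to 136423761, plus strand), stood at 74.9, 66.7 and 86.4 TPM in XYA1353 libraries, against 134, 120 and 127 TPM in control libraries (-0.74, SE 0.10, adjusted p = 0.0027). PMPCB, the catalytic subunit (ENSG00000105819, chromosome 7, 103297422 to 103329511, plus strand), stood at 102, 96.9 and 96.2 TPM in XYA1353 libraries, against 68.5, 78.5 and 76.3 TPM in controls (0.40, SE 0.07, adjusted p = 0.00686). Neither pair of groups overlapped. PMPCB shares 628 exonic bases with DNAJC2 on the opposite strand, which averaged 70.7 TPM in XYA1353 and 110 TPM in control libraries, the direction opposite to that of PMPCB.

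**Figure D3:**
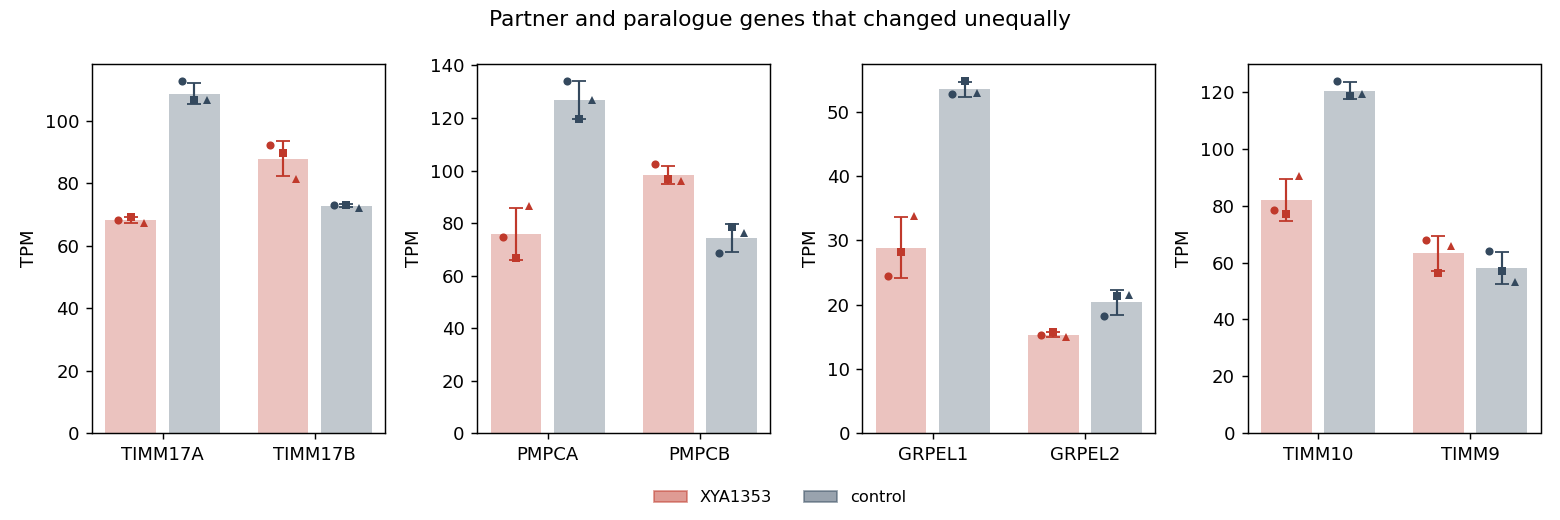
TPM of TIMM17A and TIMM17B, PMPCA and PMPCB, GRPEL1 and GRPEL2, and TIMM10 and TIMM9, with XYA1353 left of control. Bars give the mean and error bars the SD of 3 libraries, and circle, square and triangle are replicates 1, 2 and 3. TIMM17A and PMPCA are lower in XYA1353 while TIMM17B and PMPCB are higher.

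Ratios within a library do not depend on scaling between libraries. For 6 pairs of paralogues or partners the log2 ratio was compared by a two-sided exact permutation test, in which 3 against 3 libraries cannot go below p = 0.1. The ratio of PMPCA to PMPCB TPM was 0.731, 0.688 and 0.899 in XYA1353 libraries, against 1.96, 1.52 and 1.66 in control libraries. On the log2(TPM + 1) scale it differed by -1.14 (exact permutation p = 0.1, 0.12 adjusted over the 6 pairs). The ratio of TIMM17A to TIMM17B TPM was 0.741, 0.770 and 0.826 in XYA1353 libraries, against 1.54, 1.46 and 1.48 in control libraries, a log2 difference of -0.93 with the same p-values. In both pairs the gene that was the more abundant in every control library was the less abundant in every XYA1353 library. The log2 difference was -0.50 for GRPEL1 over GRPEL2, -0.19 for TIMM8A over TIMM8B and -0.18 for MTX1 over MTX2, each without overlap and with the same p-values. It was -0.16 for TOMM40 over TOMM40L, with overlap (exact permutation p = 0.2, 0.2 adjusted). With same-numbered libraries taken as pairs, a form added after seeing the data, the ratio was lower after XYA1353 in 3 of 3 pairs for each of the 6, TOMM40 over TOMM40L included. The exact paired permutation p was 0.25 for each, the smallest that 3 pairs can give.

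Among the genes that fell, XYA1353 replicate 3 usually changed least. Its value was the nearest to the control mean for 17 of the 21, with a median log2 change of -0.41, against -0.66 in replicate 1 and -0.64 in replicate 2. TIMM17A, TIMM21 and GRPEL2 were exceptions, with values for replicate 3 at or past those of the other libraries, at -0.68, -0.77 and -0.41 on the log2 scale. Replicate 3 also had the highest summed erythroid markers of the XYA1353 libraries, at 15480 TPM, and its part in the smaller change was not tested. Of the 21 genes, 21 were called lower without that library.

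**Figure D4:**
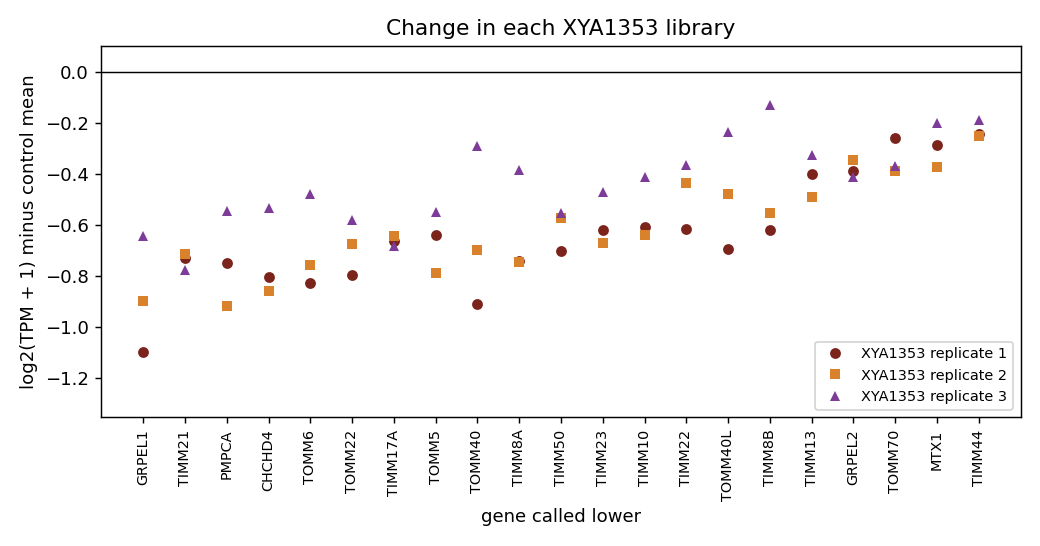
Log2(TPM + 1) in each XYA1353 library minus the control mean, for the 21 genes that fell, in order of mean change. Every point lies below 0, and the triangles of replicate 3 are nearest to 0 for 17 of the 21 genes.

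Among other genes of the pathway, more fell than rose in each list but the stress response. Over all genes tested 16.0% fell and 15.4% rose, and among those averaging at least 10 TPM 24.2% fell and 16.5% rose. The list of import partners was broad and also held VDAC channel genes and cytosolic chaperone genes. Of its 33 tested genes 14 fell (42.4%), 2 rose and 17 were uncalled, with a median change of -0.18 on the log2 scale. Most of the 14 were VDAC, cytosolic chaperone or cochaperone genes, and HSPA9 was among the 17. The 14 became 9 without control replicate 2, where lower calls over all genes were 1453, against 2143 with all libraries. The 2 became 1 without XYA1353 replicate 2 or control replicate 3. HSP90AA1 (-0.96, adjusted p = 0.0015) and STIP1 (-0.80, adjusted p = 0.00161), an HSP90 and a cochaperone that hand precursors to TOMM70, changed most. Of 21 substrates of the MIA pathway 8 fell (38.1%), 1 rose and 12 were not called, led by CCDC58 (-0.89) and NDUFS5 (-0.59). The number that rose was 0 with no filter and in each fit that left out a library but that without XYA1353 replicate 2. Of 17 matrix chaperones and proteases 11 fell, 1 rose and 5 were not called. CLPB, a disaggregase (-1.42), and PHB, a prohibitin (-0.83), changed most, and LONP1, a matrix protease named after its values were seen, rose (0.45, adjusted p = 0.00292).

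Of 13 factors of mitochondrial biogenesis 4 fell, 0 rose and 9 were not called. The share that fell was 30.8%, beside 16.0% of all genes tested and 24.2% of those averaging at least 10 TPM. TFAM, which packages mitochondrial DNA, fell to 29.8 ± 5.18 TPM in XYA1353 libraries, against 60.0 ± 1.57 TPM in control libraries, and TFB2M, a mitochondrial transcription factor, to 30.1 ± 2.69 TPM in XYA1353 libraries, against 60.4 ± 7.69 TPM in control libraries (SD, n = 3 each). NRF1, named after its values were seen, stood at 9.85, 15.7 and 9.86 TPM after XYA1353 and at 11.2, 13.7 and 14.1 TPM in controls (adjusted p = 0.571). Of 14 genes listed for the response to impaired import 6 rose (42.9%), 3 fell (21.4%) and 5 were not called. Import itself was not measured, and what raised these 6 genes was not tested. Over all genes tested 15.4% rose and 16.0% fell. ATF5, a stress factor whose protein is itself imported into mitochondria, stood at 356, 302 and 186 TPM in XYA1353 libraries, against 48.4, 47.5 and 26.5 TPM in controls (2.75, SE 0.30, adjusted p = 0.0015), and DDIT3, the gene of CHOP, rose by 2.91.

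The share of genes that fell was 60.0% of the 35 import genes, 60.3% of 78 mitochondrial ribosomal protein genes and 37.8% of 37 NDUF genes, against 16.0% of all genes tested. The median log2 fold changes were -0.38, -0.34, -0.17 and 0.02 in that order. The NDUF genes were taken as complex I genes by name alone, NDUFA4 among them. No test set these lists against each other, and the shares moved with the libraries and the scaling. The complex I count of 14 became 7 without control replicate 2 and 7 under quantile normalization. Lower calls over all genes were 1453 and 2212 in these settings, against 2143 in the main fit. Without XYA1353 replicate 2 the counts were 12 import genes, 36 mitochondrial ribosomal protein genes and 11 complex I genes. In that fit lower calls over all genes were 1408, against 2143 with all libraries, so the counts went down beyond these lists.

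**Figure D5:**
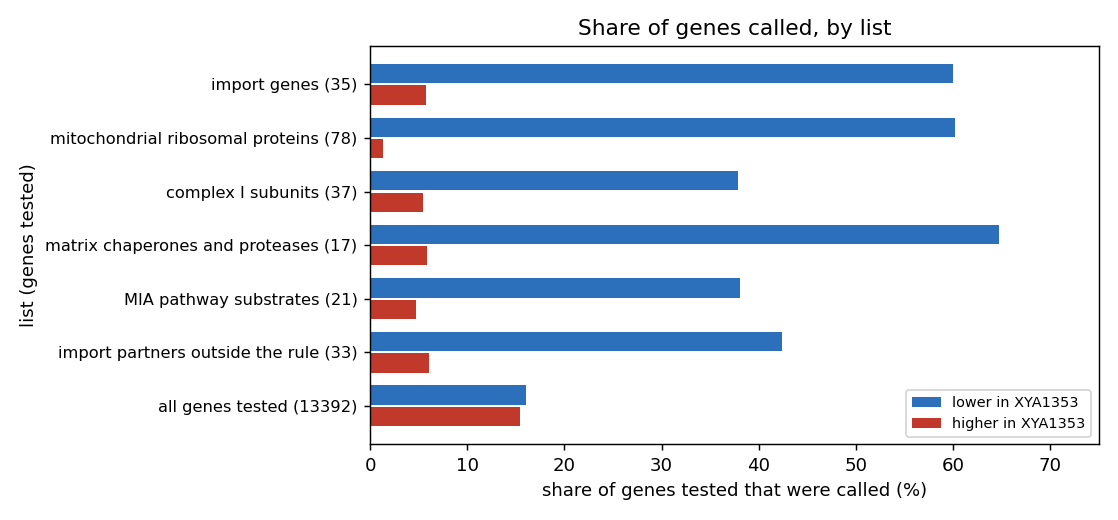
Share of the genes tested in each list that were called lower or higher in XYA1353 libraries than in controls, with the number tested in brackets. The list labelled matrix chaperones and proteases also holds proteins outside the matrix, and that of import partners also holds VDAC channel and cytosolic chaperone genes. The list labelled complex I subunits was taken by gene name. Import genes and mitochondrial ribosomal proteins have 60.0% and 60.3% called lower, beside the 16.0% of all genes tested.

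The 12 genes called lower in each of the 14 alternative settings were TOMM5, TOMM6, TOMM22, CHCHD4, TIMM8A, TIMM10, TIMM17A, TIMM21, TIMM23, TIMM50, GRPEL1 and PMPCA, and the gene called higher in each was PMPCB. The number of import genes that fell was 12 without XYA1353 replicate 2, where 1408 of all genes tested fell. The number that rose was 1 without a mean-variance trend. It was also 1 in every fit that left out a library except that without XYA1353 replicate 3, where it was 3.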

How the data were processed

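RNA from 6 libraries was sequenced after preparation with a SMARTer mRNA kit, per the labels' protocols. The authors deposited TPM values in a single table with 61206 rows, of which 583 without a gene name were left out; 2 columns of group means were not used. The aligner, the counter and any use of strand are not given in the labels or the file. The submitters' processing notes name mouse builds, yet all named rows carry human identifiers. Gene coordinates come from GENCODE release 29 (GRCh38) by identifier, with 36 of 36 genes found.

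Named genes with a mean of at least 1 TPM, 13392 in all, were fitted as log2(TPM + 1) with limma 3.58.1 (eBayes with a trend, R 4.3.3), two-sided, with Benjamini-Hochberg adjustment over all of them. This scale understates changes of low genes. Ratios were tested with scipy 1.17.1. The members and lists were chosen with earlier results of these data known. All members may be named; of other lists, the 2 called genes that changed most among those averaging at least 5 TPM.

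Libraries with the same replicate number deviated together across genes (correlations 0.111, 0.114 and 0.133, against -0.116 to -0.002 for other pairs), so the numbers were taken to pair the libraries, and a fit with the replicate number as a block was an alternative. The others were a pseudocount of 0.1, no filter, a mean of at least 5 TPM, median-of-ratios scaling, quantile normalization, no trend and each library left out. A rescaling without ribosomal protein, mitochondrially encoded and globin genes and a paired form of the ratio test were added after seeing the data.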

Additional observations from a re-analysis of the deposited data

How the results depend on the processing

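TPM carry no depth, so no counting error can be given, and 3 libraries a group limit what can be called. With the replicate block 19 import genes fell and 2 rose, against 21 and 2 without it, and it ended the TIMM44 and TIMM8B calls only. The count that fell was also 19 under median-of-ratios scaling, without a trend and after the rescaling without ribosomal protein, mitochondrially encoded and globin genes, 18 under quantile normalization and 16 with no filter. Over all genes tested 1675 fell with no filter and 2212 under quantile normalization, the lowest and highest of these settings. Without a trend 1 import gene rose, PMPCB. The median over all genes lay between -0.04 and 0.04 on the log2 scale in each setting. Leaving out each library in turn gave 12 to 21 import genes lower and 1 to 3 higher, 2608 to 4460 genes called in all, 1200 to 2350 higher and 1408 to 2110 lower, and in the other lists 8 to 14 higher and 73 to 104 lower. Each of these fits had 1 library fewer, and the lowest count of import genes, 12, came without XYA1353 replicate 2. Over them the uncalled log2 change of PAM16 ran from -0.0443 to 0.0798, and that of TOMM34 from -0.0952 to 0.0152, so both changed sign; the cause was not tested. The 6 ratios kept their direction in every setting tried, a pseudocount of 0.1, each library left out and the paired form.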
